A study of Zea mays with 168 samples.

Results

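Transcript levels in the primary root of maize (Zea mays) were examined in the cross of the inbred lines 002 and 250, which the deposited notes call UH002 and UH250. Samples were chosen by the genotype in their titles (002x002, 250x250, 002x250 or 250x002), which gave 50 samples out of both channels of the 84 slides of the series. The label 002x002 or 250x250 is an inbred line, and 002x250 and 250x002 are the reciprocal hybrids; which line served as seed parent is not stated in the labels. No treatment is named for any of the 4 genotypes. Roots were harvested 3.5 days after germination in water, and each replicate was a pool of about 20 roots per genotype from which polyadenylated RNA was purified. Per the series text every RNA sample was an independent biological replicate. Each slide was shared by a pair of RNA samples, one labelled with Cy3 and the other with Cy5. Samples numbered 17 (002x002), 17 (250x250), 8 (002x250) and 8 (250x002), and 48 remained when nearly identical slides were counted once.

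Heterosis is the stronger growth of a hybrid compared with its inbred parents, and in maize it is visible in the seedling root soon after germination. Expression of a gene in a hybrid is called additive where it equals the mean of both parents, and non-additive where it departs from that mean. Reciprocal hybrids carry the same pair of nuclear genomes and differ in which line gave the egg and which the pollen, and so in their cytoplasm.

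The 14 slides that carried 2 of the 4 genotypes gave the main comparison. They held 5 samples of 002x002, 7 of 250x250, 8 of 002x250 and 8 of 250x002, and no slide among them paired the inbred lines with each other. The remaining samples of the lines were hybridised against other genotypes. The measure was the log2 level of one sample minus that of the other on the same slide, and a dye effect was fitted with it. Of 12160 spots, 11838 spots of 11431 identifiers were tested. Identifiers are sequence accessions of the printed clones, and the files give no gene name or position for them.

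Slides differed in quality, and these measurements stand beside every result below. The SD of the log2 ratio over the tested spots ran from 0.239 on slide 30 to 0.951 on slide 273. By slide number it was 0.239 in the range from 0 (1 slide), 0.359 to 0.951 in the range from 273 (5 slides), 0.504 to 0.746 in the range from 471 (6 slides) and 0.297 to 0.307 in the range from 916 (2 slides). Whether these ranges are batches of printing or hybridisation is not given in the labels. Spot levels within a printed block of 380 spots were set against the mean rank of the same spots on the other 13 slides. The median rank correlation over the 32 blocks was 0.91 on slide 297 and 0.42 on slide 510, and it lay under 0.7 on 5 slides (274, 506, 508, 509 and 510). Of 448 blocks on the 14 slides, 36 had a rank correlation under 0.3, and 28 of these lay among the 56 blocks of one edge column of the slides. On slide 292, 868 tested spots held no value, and on slide 297 it was 314.

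**Figure D1:**
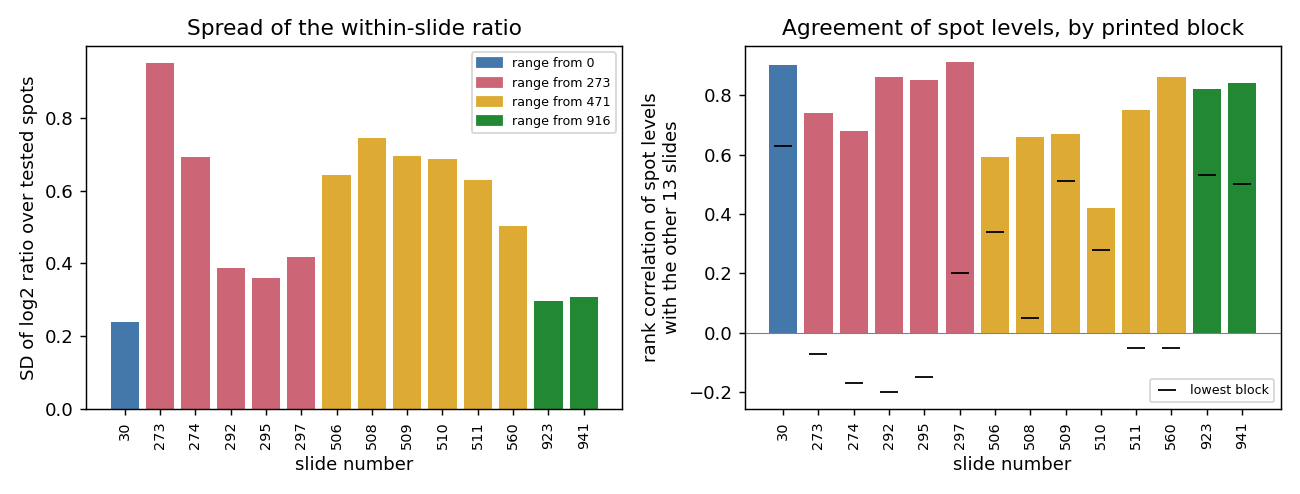
Left, the SD of the within-slide log2 ratio over tested spots for each of the 14 slides. Right, the rank correlation of spot levels with the other 13 slides, as the median over 32 printed blocks (bars) and the lowest block (dashes). Colours give the slide-number range; slide 273 has the widest ratio, at 0.951, and slide 510 the lowest median agreement, at 0.42.

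No spot passed the test of a hybrid against the mean of its lines, set at an adjusted p under 0.05 in limma's moderated test with Benjamini-Hochberg adjustment over all spots. For 002x250, 0 of 11838 spots were called (0%), the smallest adjusted p was 1, and an unadjusted p under 0.05 was found at 248 spots (2.09%). For 250x002, 0 spots were called (0%), the smallest adjusted p was 0.11, and an unadjusted p under 0.05 was found at 784 spots (6.62%). With both hybrids averaged, 0 spots were called (0%), against 482 (4.07%) at that unadjusted level. A level above the higher or below the lower line was called for 0 spots in either hybrid (0% of 23676 tests, and 0.583% at that unadjusted level).

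The intervals show what size of difference these slides leave room for in the ratios of the spots, most of which were dim. The median standard error was 0.171 for 002x250 and 0.179 for 250x002 on the log2 scale. For 97.4% of spots in 002x250 and 95.1% in 250x002, the 95% interval of the difference from the line mean lay within 2-fold in either direction. These intervals are not adjusted for the number of spots.

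The spots with the largest moderated statistics were described in each direction, as 3 higher and 3 lower, and none passed the test. Their mean levels were set against the 97.5th percentile of the unnamed spots, 11.22 on the log2 scale. In 250x002, 5 of the 6 named spots lay above it, and BG840865 (11.20) did not. AW330954, at percentile 99.2 of mean level, was higher in 250x002 than in the line beside it on 6 of 6 slides. The differences were 1.32, 0.28, 1.5 and 0.48 against 250x250 on slides 274, 292, 508 and 923. Against 002x002 they were 1.18 and 1.94 on slides 509 and 511. The fitted difference from the line mean was 1.12 ± 0.18 (SE, adjusted p = 0.11 in limma). Levels below are log2 values minus the median tested spot of the channel. That of AW330954 lay between 3.85 and 5.9 in 250x002 (median 4.94, n = 8), between 3.57 and 4.97 in 250x250 (median 4.29, n = 7) and between -0.22 and 5.16 in 002x002 (median 4.03, n = 5). Over 16 samples of each line, slides with other genotypes included, it ran from -0.22 to 7.01 in 002x002 (median 4.88). In 250x250 it ran from 3.52 to 7.23 (median 4.53), and such pooled levels also mix line with slide-number range. In a model of all 48 samples with slide as a random block, the difference was 0.88 ± 0.29 (SE, adjusted p = 0.5 in limma). The groups overlapped in level, so the difference rests on the pairing within slides.

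AW927398 and AI901780, which were also bright, were picked with AW330954 for the highest statistics in 250x002. Their shared direction was fixed by that choice. AI901780 also lies close to AW330954 in the same printed block. AW927398 was 1.75, 1.46 and 0.29 above 250x250 on slides 274, 508 and 923, and -0.11 on slide 292. Against 002x002 it was 1.42 and 1.64 higher on slides 509 and 511, and the fitted difference was 1.02 ± 0.19 (SE, adjusted p = 0.19 in limma). AI901780 was higher on all 6 slides, by 0.13 (slide 292) to 1.69 (slide 511), with a fitted difference of 0.85 ± 0.16 (SE, adjusted p = 0.19 in limma).

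The next 3 spots were picked for the lowest statistics in 250x002, so their shared direction on most slides was fixed by that choice. AW331161 was lower in 250x002 on 5 of 6 slides, by -1.64 to -0.87, and higher by 0.72 on slide 292. BG840865 was lower on the same 5 slides, by -2.12 to -0.27, and higher by 1.15 on slide 292. AI612480 had differences of -3.17 to -0.11 on those 5 slides and 1.13 on slide 292. The fitted differences were -0.90 ± 0.20, -0.95 ± 0.24 and -1.29 ± 0.32 (SE), with adjusted p of 0.26, 0.36 and 0.35 in limma.

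**Figure D2:**
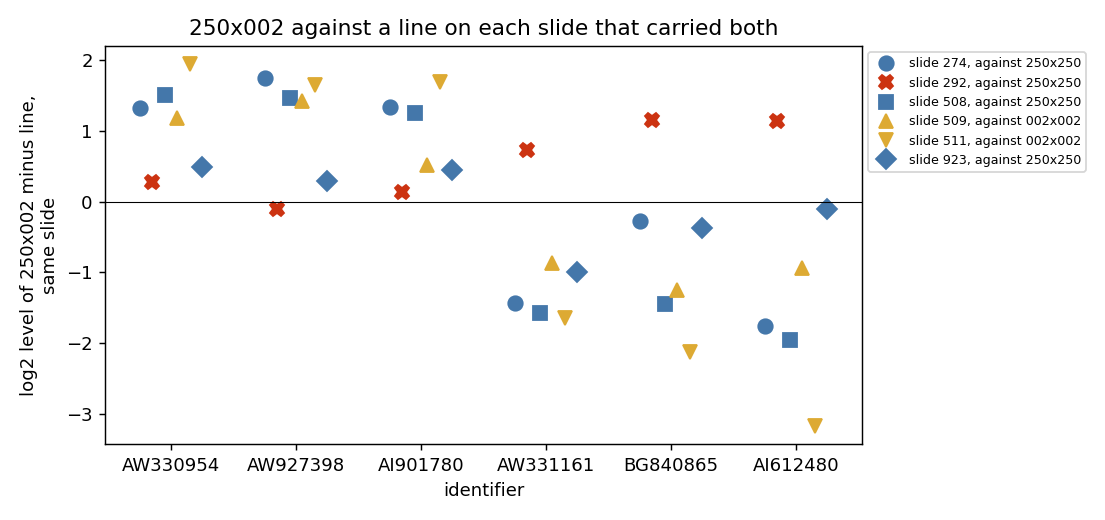
Log2 level of 250x002 minus that of the line on the same slide, for the 6 spots with the largest moderated statistics; colour and shape give the slide and the line. Slide 292 (crosses) is above 0 for AW331161, BG840865 and AI612480, where the other 5 slides are below 0.

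Slide 292 decided the count for 250x002. Without it, 48 spots were called (0.405% of those tested), 18 higher and 30 lower in 250x002. Slide 292 was the only slide with 250x002 in Cy5 beside 250x250, so this pair then had no dye swap. Of these 48, 40 had the opposite sign on slide 292 itself, against 57.4% of the 10970 tested spots measured there; the 48 were picked by leaving that slide out, so this count is a description. AW330954 then had a difference of 1.23 (adjusted p = 0.023 in limma) and AW331161 of -1.10 (adjusted p = 0.023 in limma). The 48 spots were bright, with a median mean level of 14.12 against 10.03 for all tested spots. Over all spots, the difference between 250x002 and 250x250 on slide 292 correlated at -0.406 with that on slide 923, at -0.23 with slide 508 and at -0.098 with slide 274. These 3 slides had the dyes the other way round, and among themselves their correlations were -0.029, -0.004 and 0.304. Slides with the same pair of genotypes and swapped dyes had a median correlation of -0.098 (9 pairs, 7 below 0), the lowest being -0.501 between slides 506 and 510, and those with the same dyes 0.094 (5 pairs). For none of the 14 slides, slide 292 included, did the scanner values of a channel match the value table's other channel more closely. That check sets deposited values against each other, so it cannot detect RNA that was labelled or titled the wrong way round. The part that dye or labelling has in these signs and correlations was not tested.

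All 6 named spots of 002x250 had a mean level under the 97.5th percentile of the unnamed spots, from 9.35 to 11.04. The strongest statistic in 002x250 belonged to AW000273, with a difference from the line mean of 1.11 ± 0.22 (SE, adjusted p = 1 in limma). On single slides 002x250 exceeded 002x002 by 0.56 (slide 506) and 2.93 (slide 510), and it exceeded 250x250 by 0.32 (slide 30) and 1.76 (slide 273), with -0.10 on slide 941. The largest values came from slides 510 and 273, whose log2 ratios had an SD of 0.687 and 0.951. AW000273 lies in the edge column of blocks that held most of the poorly agreeing ones, and it had no value on slides 292 and 297. Its difference changed sign in 1 of 35 alternatives, with -0.10 as the lowest. BM269495, with a level of 9.35 beside 9.346 for the median unnamed spot, had smaller differences, from -0.11 to 1.22 on 6 slides, and a fitted difference of 0.50 ± 0.13 (SE, adjusted p = 1 in limma). BG842430 was higher in 002x250 on 6 of 6 slides, by 0.10 to 1.02, with a fitted difference of 0.45 ± 0.12 (SE, adjusted p = 1 in limma).

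Among the lower spots of 002x250, AW054215 had values of -0.85, -1.12 and -0.99 against 250x250 on slides 30, 273 and 941. Against 002x002 it had -0.87 and -1.47 on slides 297 and 510 but 0.89 on slide 506, so the direction held on 5 of 6 slides. The fitted difference was -0.67 ± 0.19 (SE, adjusted p = 1 in limma). AI637105 had a fitted difference of -0.79 ± 0.23 and AW120085 of -0.69 ± 0.20 (SE), both with an adjusted p of 1 in limma.

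**Figure D3:**
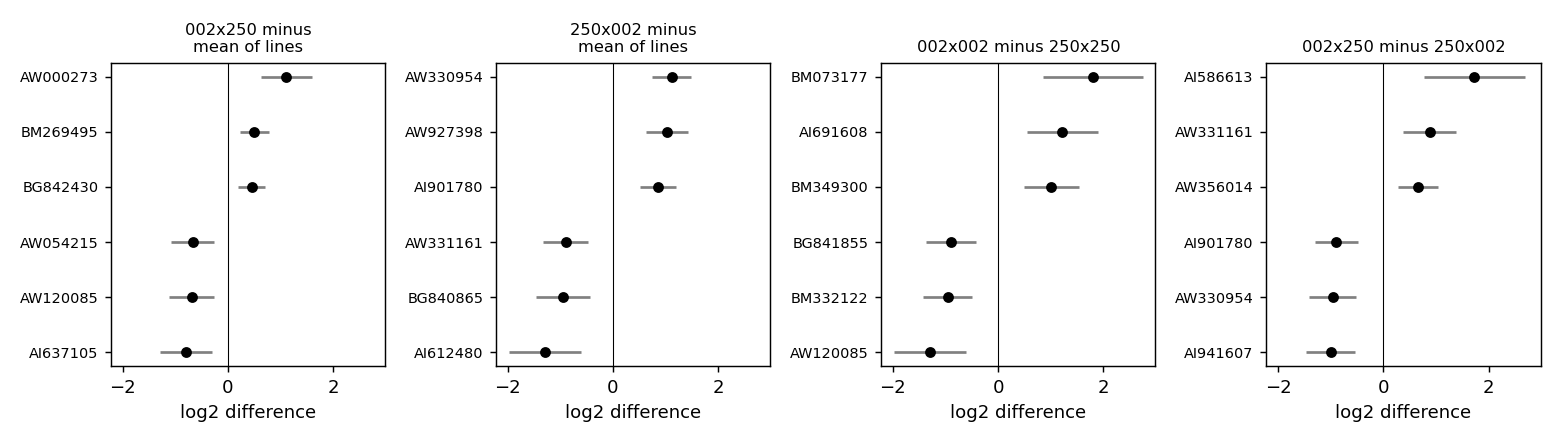
Fitted log2 differences with unadjusted 95% intervals for the 6 spots with the largest moderated statistics in each of 4 comparisons. The intervals exclude 0 because the spots were picked for their statistics, and none of the 24 passed the test over all spots.

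The lines 002x002 and 250x250 were compared through the hybrids they shared slides with, and the comparison was the least precise. No spot was called (0%), 363 spots (3.07%) passed the unadjusted level, and the smallest adjusted p was 0.99 in limma. The median standard error was 0.277, and the 95% interval lay within 2-fold for 76.5% of spots. Of the 6 named spots, 4 had a mean level under the 97.5th percentile of the unnamed spots, AW120085 (10.64) among them.

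AW120085 had lower values in 002x002 than in 250x250, the difference it was picked for. No slide carried a hybrid with both lines. The hybrids were below 250x250 on 7 of 7 slides, by -2.43 to -0.14, with a median of -1.09. The value of -2.43 came from slide 273, which had the widest ratios. For 250x002 the values were -1.26, -0.33, -0.95 and -0.14 on slides 274, 292, 508 and 923. Against 002x002 the values of the hybrids ran from -0.33 to 0.6 on 5 slides, 2 above and 3 below 0. The fitted difference of 002x002 from 250x250 was -1.29 ± 0.33 (SE, adjusted p = 0.99 in limma).

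The additional samples of the lines bear on this spot, although 12 of the 32 had already entered the fit above. Over 16 samples of each line, its level ran from -0.49 to 1.29 in 002x002 (median 0.16) and from 0.63 to 1.85 in 250x250 (median 1.42). In the hybrids, it ran from -0.63 to 0.88 in 002x250 (median 0.41, n = 8) and from -0.29 to 1.56 in 250x002 (median 0.35, n = 8). The ranges of the lines overlapped. Levels pooled over 16 samples, here and below, also mix line with slide-number range. As deposited, the range from 471 held 9 samples of 002x002 and 1 of 250x250. The range from 0 held 2 of 002x002 and 7 of 250x250. With all 48 samples in a model with slide as a random block, the difference was -1.21 ± 0.19 (SE, adjusted p = 4e-04 in limma), 1 of 2 spots called (0.0169%). With the slide range as a covariate it was -1.16 and the only call (adjusted p = 0.0053 in limma). In the fit over all 16 genotypes it was -0.80 with an adjusted p of 0.47 in limma.

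The other spot called in the random block model, BM078522, was chosen after its values were seen. Its level ran from -0.69 to 0.67 in 002x002 (median -0.25) and from -0.43 to 1.77 in 250x250 (median 0.98, n = 16 each), and these ranges overlapped. The difference was -1.13 ± 0.22 (SE, adjusted p = 0.024 in limma), and on the 14 slides it was -1.01 ± 0.35 (SE, adjusted p = 0.99 in limma).

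BM073177 had the largest positive difference among the named spots, 1.80 ± 0.45 higher in 002x002 (SE, adjusted p = 0.99 in limma). The hybrids exceeded 250x250 on 7 of 7 slides, by 0.31 to 2.34, and set against 002x002 they ran from -2.86 on slide 506 to 0.88 on slide 511. Over 16 samples each, its level ran from -0.03 to 3.38 in 002x002 (median 1.92) and from -0.65 to 2.1 in 250x250 (median 0.41). On the 14 slides alone, which hold all hybrid samples, the median was 3.06 in 002x002 (n = 5), 0.76 in 250x250 (n = 7), 2.24 in 002x250 and 3.01 in 250x002 (n = 8 each). The difference was 1.82 in the fit over all genotypes (adjusted p rounds to 0.05 in limma, not called) and 1.45 with the random block (adjusted p = 0.06 in limma). It passed the test with the random block and centred columns, an alternative chosen after seeing the data (1.52, adjusted p = 0.025 in limma).

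**Figure D4:**
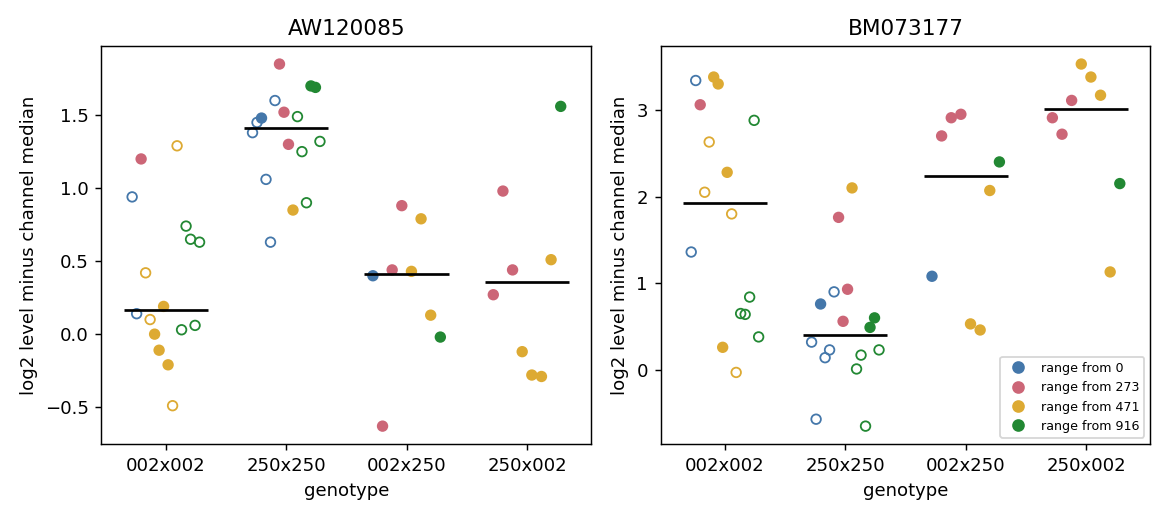
Log2 level minus the channel median of AW120085 and BM073177 in 48 samples of the 4 genotypes, with the median as a bar. Filled points lie on the 14 slides, open points on slides shared with other genotypes, and colours give the slide-number range. For AW120085 the median is 1.42 in 250x250 and 0.16 in 002x002, with overlapping ranges.

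The 4 remaining named spots between the lines had fitted differences of either sign. BM332122 was above 002x002 in the hybrids on 5 of 5 slides, by 0.38 to 0.76, and below 250x250 on 6 of 7, with a line difference of -0.96 ± 0.22 (SE). BM349300 was below 002x002 on 5 of 5 slides, by -1.6 to -0.26, and above 250x250 on 5 of 7, with a line difference of 1.01 ± 0.25 (SE). At one of the 2 spots of BG841855 the hybrids were below 250x250 on 7 of 7 slides, with a line difference of -0.89 ± 0.22 (SE). At the other they were below on 4 of 7, with a line difference of -0.44 ± 0.39 (SE). AI691608 had a line difference of 1.22 ± 0.32 on the 14 slides and 0.49 in the fit over all genotypes. The adjusted p was 0.99 in limma for each of them.

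No spot passed the test between the reciprocal hybrids (0 called, 0%, smallest adjusted p = 0.78 in limma), and 705 spots (5.96%) passed the unadjusted level. The 95% interval lay within 2-fold for 90.9% of spots, with a median standard error of 0.213. Slides 295 and 560 carried both hybrids with dyes swapped, and their differences correlated at 0.154 over spots, the highest of the 9 swapped pairs; spots are not independent replicates. Without slide 292, 2 spots were called (0.0169%), AI612478 at 1.42 and 1 of the 2 spots of AW066628 at 1.77 higher in 002x250. Both were chosen after their values were seen, and both had an adjusted p that rounds to 0.05 in limma. The other spot of AW066628 then had a smaller difference, 0.39 ± 0.21 (SE, adjusted p = 0.75 in limma).

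The named spots of this comparison overlapped with those of 250x002, which enters both. AI586613, at one of its 2 spots, was higher in 002x250 by 1.29 and 1.55 on slides 295 and 560, with a fitted difference of 1.73 ± 0.45 (SE, adjusted p = 0.78 in limma). Its level ran from 1.67 to 5.42 in 002x250 and from 0.87 to 1.67 in 250x002 (n = 8 each), so the groups met at 1.67. The other spot of AI586613 had a difference of 0.08 ± 0.21 (SE), and the spots of this identifier thus disagreed. AW330954 was lower in 002x250 by -0.65 and -1.09 on these 2 slides, with a fitted difference of -0.96 ± 0.21 (SE). AI901780 was lower by -0.56 and -1.08 (fitted -0.89 ± 0.19), and AI941607 by -0.5 and -1.3 (fitted -1.0 ± 0.22). AW331161 was higher by 1.06 and 0.54 (fitted 0.89 ± 0.24), and AW356014 by 0.42 and 1.12 (fitted 0.66 ± 0.18). Each of these had an adjusted p of 0.78 in limma.

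Only 8 of the 11431 identifiers could be given a symbol, through synonyms in RefSeq's table for the maize assembly Zm-B73-REFERENCE-NAM-5.0. None of their 10 spots was called. For 250x002 against the line mean their differences lay between -0.07 and 0.39, with a median of 0.12 against -0.01 over all spots. The highest was AW400087 (LOC100500995, a long non-coding RNA), at 0.39 ± 0.19 (SE, adjusted p = 0.76 in limma). AI665898 is listed as LOC100191184 with the synonym reticulon, a family of proteins that shape the membranes of the endoplasmic reticulum. Its 2 spots had differences of 0.16 ± 0.15 and -0.05 ± 0.19 in 250x002 (SE). Between the lines, AI714808 (LOC100283464, a transcribed pseudogene) had a difference of 0.69 ± 0.28 (SE, adjusted p = 0.99 in limma). For 002x250 the 10 spots lay between -0.20 and 0.21.

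Slide-number ranges from 273 and from 471 could each estimate every comparison from their own slides, 5 and 6 in number. The range from 273 holds 002x002 on slide 297 only, and the range from 471 holds 250x250 on slide 508 only. Every comparison with or between the lines thus rests on 1 slide for that line. With so few slides, the correlations below cannot tell whether the ranges differ. The estimates of the 2 ranges correlated over spots at 0.113 for 002x250, -0.074 for 250x002, -0.093 between the lines and 0.037 between the reciprocal hybrids. The median standard error was 0.896 in the range from 273 and 0.583 in the range from 471 for the lines. Calls in these small fits were 1 spot for 002x250 (0.00912%) and 1 for 250x002 (0.00912%) in the range from 273, with 2 for the mean of both hybrids (0.0182%), and 0 in the range from 471.

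**Figure D5:**
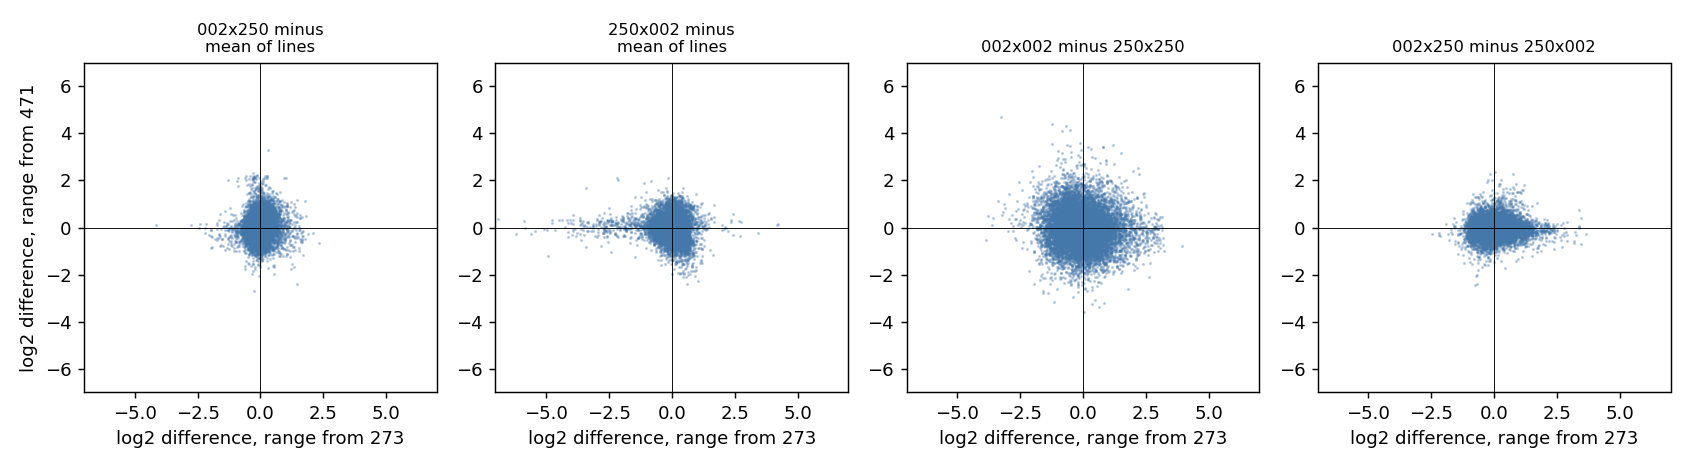
Fitted log2 differences for each spot from slides of the range from 273 (horizontal) and of the range from 471 (vertical), in 4 comparisons. The clouds show no common direction, with correlations between -0.093 and 0.113.

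Slides of all genotypes within a range gave further calls, several of which involve a genotype with 1 sample in that range, which is assumed to vary like the others. In the range from 273, where 002x002 has 1 sample (slide 297), 15 spots were called between the lines (0.13%), of which 14 were lower in 002x002, and 13 of the 15 lay between places 4 and 52 of a single printed block. Their median size was 2.98 there and 0.54 for the same spots on the 14 slides. In the range from 916, where 002x250 has 1 sample (slide 941), 19 spots were called for 002x250 (0.161%), all higher, of which 12 lay in one block, and their median size was 2.71 there and 0.25 on the 14 slides. In the range from 471, where 250x250 has 1 sample (slide 508), 29 spots were called for 250x002 (0.245%), 21 higher and 8 lower, spread over 14 blocks. Of these 29, 6 were also called without slide 292. AW330954 was among them, with a difference of 1.51 in the range from 471. Both fits hold the 6 slides of this cross in that range, and neither holds slide 292. The overlap is thus no independent check. In the range from 0, where 002x250 has 1 sample (slide 30), 2 spots were called for 002x250 (0.0169%), at neighbouring places of one block.

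The fit over 80 slides of all 16 genotypes called 1 spot for 002x250 (0.00845%) and 7 for 250x002 (0.0591%). With slides 288 and 289 kept, it called 1 and 0. This fit takes a common spread for the slides of all genotypes, which need not be that of the 14 slides. Of the 7 spots, AI691997, AW257910 and AI657208 lay in the same block of the edge column, all higher in 250x002. They were dim, with mean levels of 9.67, 9.71 and 9.93, and were chosen after their values were seen. BM340806, chosen after its values were seen, had a difference of 0.98 ± 0.18 for 002x250 (SE, adjusted p = 0.012 in limma). On single slides it was 2.53, 1.97 and 1.7 higher on slides 506, 510 and 273, 0.58 higher on slide 297, and -0.12 and -0.11 on slides 30 and 941. AW330954 had a difference of 1.04 ± 0.22 for 250x002 (SE, adjusted p = 0.036 in limma). BG842449 (-1.05) and AI600432 (-1.08) had the same adjusted p in 250x002. BG842449 had -4.35 on slide 292, and on the 14 slides its difference moved from -1.12 to -0.58 (adjusted p = 0.32 in limma) without that slide.

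The departure of these hybrids from their line mean was also set against that of the other 10 hybrids. No spot passed the test (0 of 11838, 0%, smallest adjusted p = 0.36 in limma), 943 spots (7.97%) passed the unadjusted level, and the 95% interval lay within 2-fold for 99% of spots.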

How the data were processed

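Per the deposited notes, every slide was scanned at a series of gains, a single scan of each channel was selected by the authors, and its values were normalized by a method not given in the sources used here. Values in the table deposited with the series are log2 levels. Spot intensity on a linear scale, from the deposited scanner tables, served as an alternative: their rows were turned to the order of the identifiers, scans of a channel were combined with values above 45000 dropped where a lower scan was left, and normexp (offset 50) and loess (span 0.3) were applied. An exact 0 in the value table was treated as missing.

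The log2 ratio of Cy5 over Cy3 of each of 14 slides was fitted per spot with genotype and dye effects (10 residual degrees of freedom, prior 6.46), using R 4.3.3 and limma 3.58.1. Dyes were taken from titles; on slide 941 the label field names them the other way round. Spots without identifier (190) and of 11 identifiers printed 12 times (132) were left out. Slides 26 and 472, and 28 and 48, had rank correlations of 0.9919 to 0.9989 in each channel and were averaged. In the fits of all genotypes within a range, slides 26 and 472 fell in different ranges. They were not averaged there, and each entered the fit of its own range. Spots sharing an identifier (402 identifiers with 2 or 3 spots) had a rank correlation of 0.16 in level, so the identity of a spot is uncertain. Named spots were those with the 3 highest and 3 lowest moderated statistics and a mean level above the median unnamed spot, and all with a symbol. On simulated ratios for 250x002 over 11838 spots, 100 spots were changed by 1 and 100 by 2 on the log2 scale, all at once. Of these, 72% and 99% were called, with 9 false calls. The simulated noise was independent between spots and slides, without poorly agreeing blocks or slides that ran against each other. The shares are thus not the power of the real slides to call such changes. Arrays give no read depth, and the number of slides limits precision. Another 18 scanner columns were not used. Members and lists were chosen with earlier results of these data known.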

Additional observations from a re-analysis of the deposited data

Results flagged for a closer look

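In 10 of 84 groups of samples examined (a spot in a genotype), 1 sample lay far from the others of its genotype by Dixon's criterion, which chance alone meets in about 1 group in 20. These are levels relative to the channel median. Of the 10, 5 belong to a single sample, 002x250 on slide 510. AW000273 had a level of 4.97 there (median of the genotype 1.41), AW331161 of 5.95 (median 4.42) and AI586613 of 5.42 (median 2.87), while AW330954 had -0.25 (median 4.03) and AW927398 had -0.36 (median 4.79). Slide 510 also had the lowest median agreement of spot levels with the other slides, at 0.42. The 002x002 sample beside it on slide 510 had -0.22 for AW330954, -0.82 for AW927398, 5.95 for AW331161, 2.05 for AW000273 and 3.17 for AI586613. AW054215 had a level of 0.10 in 002x002 on slide 506 (median 1.23), and AW120085 had 1.20 in 002x002 on slide 297 (median 0). BG840865 had 1.90 in 250x002 on slide 292 (median 0.64). AI691608 had -0.71 in 250x002 on slide 508 (median 2.67), and AI941607 had 0.52 in 250x002 on slide 509 (median 3.56).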

How the results depend on the processing

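All 6 comparisons among the 4 genotypes had 0 calls on the 14 slides, and 0 calls again with array weights, median centring, loess, the scanner tables, a filter on dim spots and the label field's dye on slide 941. The same held for alternatives chosen after seeing the data: exact 0 kept as a value, a dye effect per range with and without weights, and poorly agreeing blocks, slides or both left out. The cross against the other 5 crosses had 0 calls in all 7 alternatives. Leaving out 1 slide at a time gave 0 to 48 calls for 250x002 and 0 to 2 between the reciprocal hybrids, the upper value without slide 292 in both, and 0 for the other comparisons. Between the lines, the random block gave 2 calls, 1 with the slide range and 5 with centred columns as well (chosen after seeing the data). The fit over all genotypes gave 1 call for 002x250, also with slides 288 and 289, and 7 for 250x002, which had 0 with those slides. Without a dye term, 250x002 had 1 call. Slides of the range from 273 with the 4 genotypes gave 1 for 002x250, 1 for 250x002 and 2 for the mean of both hybrids. With all genotypes, the range from 0 gave 2 for 002x250 and 1 beyond both lines. The range from 273 gave 15 between the lines and 1 between the hybrids, and the range from 471 gave 29 for 250x002. The range from 916 gave 19 for 002x250, 1 for 250x002, 1 for the mean of both hybrids and 1 beyond both lines. The cause of these differences was not tested. AW330954 kept its sign for 250x002 in all 37 alternatives (0.21 to 1.51) and passed the test in 4. The other spots named for their statistics in 250x002 did not keep theirs. AW927398 (down to -3.23), AI901780 (down to -0.44) and AW331161 (up to 0.02) changed sign in 1 alternative each. AI612480 (up to 0.33) and BG840865 (up to 0.59) did so in 2 each. AW120085 kept its sign between the lines in all 38 (-1.97 to -0.06) and passed in 3. BM349300 and BM073177 kept theirs between the lines too, while AI691608, BM332122 and the first-named spot of BG841855 did not. Samples are paired by slide in the fit itself. Replicate numbers are not shared between genotypes, so no fit with them as a block was made.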
